A study of Mus musculus with 12 samples.

Results

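Transcripts of the 10 genes that encode the core and accessory subunits of Polycomb repressive complex 2 (PRC2) were measured in 12 rhabdoid tumors. The members were chosen by name: Ezh2, Ezh1, Eed, Suz12, Rbbp4, Rbbp7, Jarid2, Mtf2, Phf19 and Aebp2. All 10 were found among 24056 genes with a unique name in the files, and all 10 passed the filter for low values (at least 1 RPKM in at least 3 tumors). RPKM is the number of read fragments per kilobase of transcript, scaled to the fragments of a tumor. The tumors arose in P0-CreC;Smarcb1 flox/flox mice, kept on an FVB/N background, in which the P0 promoter drives Cre recombinase in neural crest cells and the Schwann cell lineage and deletes both floxed copies of Smarcb1. By label, 4 tumors were Retro-orbital, 3 Cheek, 3 Meninges, 1 Vestibular N (vestibular nerve) and 1 Trigeminal N (trigeminal nerve). All 12 carried the same genotype and none was treated. Ages were not given in the labels. No normal tissue was analysed here, so the values compare tumors with each other and not with Smarcb1-proficient cells. Sample titles share an identifier in 3 pairs of tumors: Cheek 1 with Meninges 1, Cheek 2 with Cheek 3, and Retro-orbital 3 with Trigeminal N 1. Whether a pair came from 1 animal was not stated, so p-values over 12 tumors may treat related tumors as independent.

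PRC2 places methyl groups on lysine 27 of histone H3 (H3K27) and so keeps developmental genes silent. Ezh2 or its relative Ezh1 carries the methyltransferase activity, Suz12 holds the complex together, Eed reads the mark and stimulates the enzyme, and the related histone chaperones Rbbp4 and Rbbp7 bind histones. Accessory subunits sort into alternative forms: Mtf2 and Phf19, both Polycomb-like proteins, belong to one form, and Jarid2 and Aebp2 to the other. SWI/SNF, the chromatin remodeler that contains Smarcb1, opposes Polycomb repression, and tumors that lack SMARCB1 are known to depend on EZH2. Ezh2, Eed and Suz12 are also known targets of E2F factors, which drive genes of the cell cycle, while Ezh1 is the more prominent form in resting cells.

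The genes lie on 8 chromosomes (GRCm38, the build also called mm10, GENCODE M21): Ezh2 at chr6:47530139-47595341 (minus strand), Ezh1 at chr11:101191115-101226463 (minus), Eed at chr7:89954654-89980983 (minus), Suz12 at chr11:79993106-80034123 (plus), Rbbp4 at chr4:129307100-129335370 (minus), Rbbp7 at chrX:162760402-162779092 (plus), Jarid2 at chr13:44729474-44921643 (plus), Mtf2 at chr5:108065674-108109004 (plus), Phf19 at chr2:34893757-34914026 (minus) and Aebp2 at chr6:140622663-140678472 (plus). Each value covers the exons of the whole gene. Exons of Rbbp4, Mtf2, Eed and Rbbp7 overlap exons of a listed gene on the opposite strand (Sync, Tmed5, E230029C05Rik and Txlng, in this order). The libraries were stranded, but the strand setting of the counting was not given in the sources used here.

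The promoters of the members were searched for sequences that E2F factors bind, since Ezh2 rose with genes of the cell cycle across the tumors. The window ran from 250 bases before to 50 bases after the RefSeq transcription start, on the strand of the gene (GRCm38.p6). The 8-letter words TTTCCCGC, TTTGGCGC, TTTCGCGC and TTTGCCGC were searched on both strands. They occurred in 3 of 14 member promoters, those of Ezh2, Suz12 and Phf19, and in 2.26% of the 32851 promoters of all genes. Capitals mark the word in the promoters below. Rbbp4, the member with the highest correlation with cell cycle genes, is shown as well and holds none of the 4 exact words. The search allowed no mismatch, so a near match such as gttggcgc in Rbbp4 was not counted.
Ezh2 (chr6:47594981-47595280, minus strand): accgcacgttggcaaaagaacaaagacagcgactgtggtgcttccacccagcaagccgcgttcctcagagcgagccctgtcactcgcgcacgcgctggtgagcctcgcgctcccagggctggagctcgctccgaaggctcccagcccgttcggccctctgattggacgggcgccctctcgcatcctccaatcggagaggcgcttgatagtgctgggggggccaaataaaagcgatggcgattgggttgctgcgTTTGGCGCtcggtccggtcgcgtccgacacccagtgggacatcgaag
Suz12 (chr11:79992856-79993155, plus strand): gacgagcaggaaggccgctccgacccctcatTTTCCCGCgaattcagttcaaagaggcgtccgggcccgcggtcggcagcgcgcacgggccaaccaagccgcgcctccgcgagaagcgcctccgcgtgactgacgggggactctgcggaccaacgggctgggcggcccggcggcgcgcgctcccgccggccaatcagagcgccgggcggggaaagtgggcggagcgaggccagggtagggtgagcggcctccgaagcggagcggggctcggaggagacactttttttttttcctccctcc
Phf19 (chr2:34913927-34914226, minus strand): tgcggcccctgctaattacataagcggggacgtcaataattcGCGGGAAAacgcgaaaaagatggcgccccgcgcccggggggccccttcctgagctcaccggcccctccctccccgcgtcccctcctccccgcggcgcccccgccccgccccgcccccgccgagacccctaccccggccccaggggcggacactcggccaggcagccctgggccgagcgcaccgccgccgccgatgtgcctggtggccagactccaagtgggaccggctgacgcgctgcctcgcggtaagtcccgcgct
Rbbp4 (chr4:129335321-129335620, minus strand): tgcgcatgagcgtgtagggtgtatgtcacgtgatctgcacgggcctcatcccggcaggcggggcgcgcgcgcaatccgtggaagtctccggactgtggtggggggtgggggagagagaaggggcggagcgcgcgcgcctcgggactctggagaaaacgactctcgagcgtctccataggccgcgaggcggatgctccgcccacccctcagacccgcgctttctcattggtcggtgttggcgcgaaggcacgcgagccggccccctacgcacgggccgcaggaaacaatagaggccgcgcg
In Ezh2 the word began 3 bases after the start site, and in Suz12 and Phf19 it lay upstream, with its first base at -219 and -208. A CCAAT box, which the factor NF-Y binds, was in 9 of the 14 member promoters, of every member but Ezh1 and Phf19, and in 37.4% of all promoters. The sequences TTTGAA or TTCGAA, words of the cell cycle homology region, were in 4 of the 14 (of Mtf2, Aebp2, Eed and Suz12) and in 19.2% of all promoters. A match describes the letters in the window and shows no binding.

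Fragment totals recovered from the RPKM values ran from 13206168 to 57128422 per tumor. Every member rested on at least 72 fragments in every tumor, the smallest number being for Phf19, and Rbbp7 on at least 6270. Among markers of other cell types, the summed RPKM of 6 neuronal genes was 530.4 and 429.3 in Cheek 2 and Cheek 3 and 17.2 to 53.2 in the other tumors. The sum of 7 astrocyte and oligodendrocyte genes ran from 6.27 (Retro-orbital 2) to 447.7 (Meninges 3). That of 8 skeletal muscle genes ran from 12.1 to 586 and that of 6 Schwann cell genes from 28.3 to 186. Sums ran from 96.5 to 513 for 6 leukocyte genes and from 16.4 to 74.6 for 5 endothelial genes. Of 4 red blood cell genes, the globin genes Hbb-bs, Hbb-bt and Hba-a1 were at 0 RPKM in every tumor. Only Alas2 was read, at 2.34 to 11.5 RPKM, so globin transcripts gave no measure of blood. Of 3 genes for proteins that the paper stained in such tumors, Vim (vimentin) ran from 114 RPKM in the Vestibular N tumor to 3001 RPKM in Retro-orbital 1. Fabp7 ran from 0.0637 to 44.8 RPKM (median 2.15) and reached 1 RPKM in 8 of 12 tumors. Acta2 (smooth muscle actin) ran from 4.21 to 56.2 RPKM. Bulk levels of these genes do not show which cells held the transcripts. In bulk tissue, fewer cells of a type and less RNA per cell cannot be told apart.

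Smarcb1 itself, the deleted gene, was still read in every tumor. It was at 2.90, 4.64, 4.72 and 6.0 RPKM in the Retro-orbital tumors, 4.58, 3.68 and 3.20 RPKM in the Cheek tumors, and 5.15, 4.73 and 6.31 RPKM in the Meninges tumors. It was at 1.70 RPKM in the Vestibular N tumor and 2.94 RPKM in the Trigeminal N tumor. A value for the whole gene does not separate exons inside the floxed segment from those outside it, nor tumor cells from cells that keep the gene. None of the 10 members was related to Smarcb1 across the 12 tumors at an unadjusted p under 0.05 (permutation test, 10 relations). The value furthest from 0 was for Suz12 (Pearson's r = -0.54, permutation p = 0.0717, Spearman's rho = -0.26, permutation p = 0.416). For Ezh2 r was -0.06 (p = 0.854, rho = 0.28, p = 0.379, permutation). Without the 2 tumors farthest from the median of Smarcb1 (Vestibular N 1 and Retro-orbital 1) r was -0.43 for Suz12, 0.42 for Ezh2, 0.67 for Ezh1 (0.38 before) and -0.55 for Aebp2 (-0.36 before), so the sign for Ezh2 rested on these 2 tumors.

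The subunits were not transcribed at equal levels. Rbbp7 was the highest, with a lowest value of 127.1 RPKM (Retro-orbital 2), a median of 232 RPKM and a highest value of 485 RPKM (Meninges 1), which placed it above at least 98.3% of all genes in every tumor. Phf19 was the lowest, with 0.879, 2.30 and 5.02 RPKM as lowest, median and highest value. The other 8 members had medians between 8.70 RPKM (Jarid2) and 32.3 RPKM (Rbbp4).

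**Figure D1:**
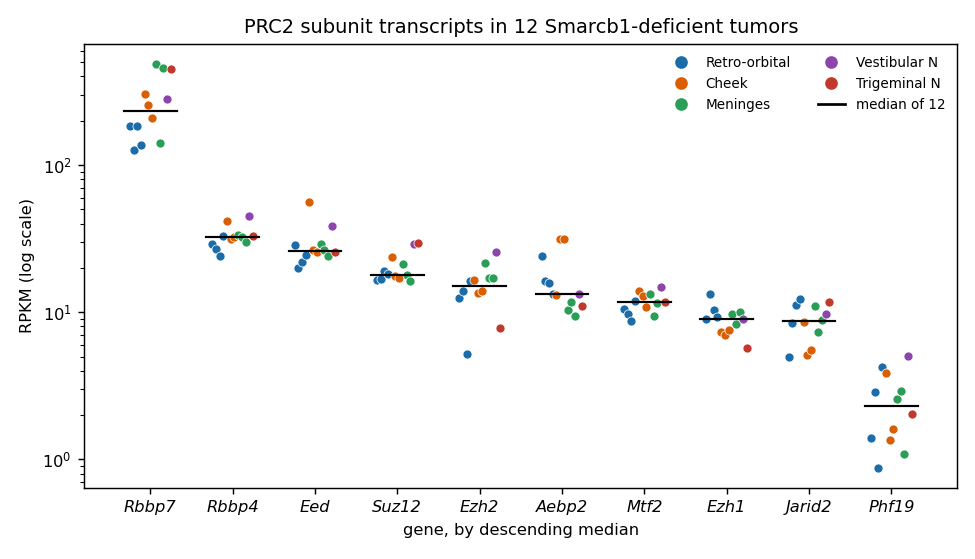
RPKM of the 10 PRC2 members in each of 12 tumors, on a log scale. Points are tumors, coloured by labelled location, and black lines are medians of 12. Rbbp7 lies above all other members in every tumor, and Phf19 has the lowest median.

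Among the core subunits, Rbbp4 had a median of 32.3 RPKM (24.1 to 45.4), Eed of 26.1 RPKM (19.9 to 56.1), Suz12 of 18.0 RPKM (16.4 to 29.4), Ezh2 of 15.0 RPKM (5.22 to 25.6) and Ezh1 of 8.95 RPKM (5.72 to 13.4). Among the accessory subunits, Aebp2 had a median of 13.2 RPKM (9.45 to 31.7), Mtf2 of 11.7 RPKM (8.68 to 14.9) and Jarid2 of 8.70 RPKM (4.99 to 12.3). Ordered by median, Rbbp7, Rbbp4, Eed, Suz12, Ezh2, Aebp2, Mtf2, Ezh1, Jarid2 and Phf19 gave 9 pairs of neighbours, which were compared within tumors on the log2(RPKM + 1) scale by an exact sign-flip test (two-sided, p not adjusted, smallest possible p 0.000488). Ezh2 and Aebp2 did not differ beyond their spread (mean difference -0.12 ± 0.87 SD, n = 12, exact p = 0.618), nor did Aebp2 and Mtf2 (0.40 ± 0.63 SD, exact p = 0.0562) or Ezh1 and Jarid2 (0.04 ± 0.46 SD, exact p = 0.745). The other 6 neighbours differed, among them Rbbp7 and Rbbp4 (2.86 ± 0.65 SD, higher in 12 of 12 tumors, exact p = 0.000488) and Suz12 and Ezh2 (0.47 ± 0.62 SD, Suz12 higher in 10 of 12 tumors, exact p = 0.00244). With 1 tumor per identifier (9 tumors), 2 of the 6 no longer passed, Rbbp4 above Eed (0.18, exact p = 0.082, against 0.0151 over 12) and Mtf2 above Ezh1 (0.29, exact p = 0.0977, against 0.0156). Such comparisons between genes rest on the transcript length that was used for each gene, which was not stated.

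Of the 2 methyltransferases, Ezh2 was higher than Ezh1 in 11 of 12 tumors (mean difference 0.64 ± 0.59 SD on the log2 scale, exact sign-flip p = 0.00732). The ratio of the RPKM values had a median of 1.80 and reached 2.86 in the Vestibular N tumor. In Retro-orbital 3 alone the order was turned, with a ratio of 0.505. There Ezh2 was at 5.22 RPKM and Ezh1 at 10.3 RPKM. The ratio of Rbbp7 to Rbbp4 ran from 4.14 (Retro-orbital 4) to 15.1 (Meninges 3).

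How far a member varied between tumors also differed. Rbbp7 had the largest spread of the 10, with an SD of 0.69 on the log2 scale, above that of 70.5% of the genes tested. The 2 steadiest were Mtf2 (SD 0.22, above 5.95% of genes) and Rbbp4 (SD 0.24, above 8.71%). Ezh2 (SD 0.56), Aebp2 (0.56) and Phf19 (0.55) lay near 60% of genes, while the partners of Ezh2 had smaller SDs (0.38 for Eed and 0.29 for Suz12).

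Ezh2 was at 12.6, 13.9, 5.22 and 16.2 RPKM in the Retro-orbital tumors, 16.4, 13.5 and 13.9 RPKM in the Cheek tumors, 21.7, 17.2 and 17.0 RPKM in the Meninges tumors, 25.6 RPKM in the Vestibular N tumor and 7.77 RPKM in the Trigeminal N tumor. The 2 lowest tumors are the pair with a shared identifier. Suz12 was at 16.7, 16.8, 19.2 and 18.2 RPKM in the Retro-orbital tumors, 23.9, 17.6 and 17.0 RPKM in the Cheek tumors, 21.3, 17.8 and 16.4 RPKM in the Meninges tumors, 29.1 RPKM in the Vestibular N tumor and 29.4 RPKM in the Trigeminal N tumor. Thus the Trigeminal N tumor held the second lowest Ezh2 and the highest Suz12. Eed was at 28.6, 19.9, 21.8 and 24.5 RPKM in the Retro-orbital tumors, 56.1, 26.6 and 25.5 RPKM in the Cheek tumors, 29.0, 26.4 and 24.0 RPKM in the Meninges tumors, 38.7 RPKM in the Vestibular N tumor and 25.7 RPKM in the Trigeminal N tumor. Cheek 1 stood above all others for Eed.

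The relation of the subunits to each other across the 12 tumors was measured as Pearson's r of log2(RPKM + 1), over 45 pairs, with p from 100000 permutations, two-sided and not adjusted. The pair Jarid2 and Aebp2, which fell into 2 clusters of tumors, is described apart. Of the other 44 pairs, 8 had an unadjusted p under 0.05, and r was positive in all 8. Rbbp4 took part in 5 of them: with Mtf2 (r = 0.85, p = 0.00031, rho = 0.85, p = 0.00085, permutation), with Eed (r = 0.83, p = 0.00167, rho = 0.71, p = 0.0124, permutation), with Phf19 (r = 0.74, p = 0.00432, rho = 0.73, p = 0.00869, permutation), with Ezh2 (r = 0.68, p = 0.0173, rho = 0.61, p = 0.0387, permutation) and with Suz12 (r = 0.66, p = 0.0185, rho = 0.68, p = 0.0181, permutation). The other 3 were Eed and Mtf2 (r = 0.71, p = 0.00518, rho = 0.71, p = 0.0126, permutation), Ezh2 and Mtf2 (r = 0.64, p = 0.0234, rho = 0.50, p = 0.102, permutation) and Ezh2 and Phf19 (r = 0.63, p = 0.0235, rho = 0.62, p = 0.035, permutation).

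**Figure D2:**
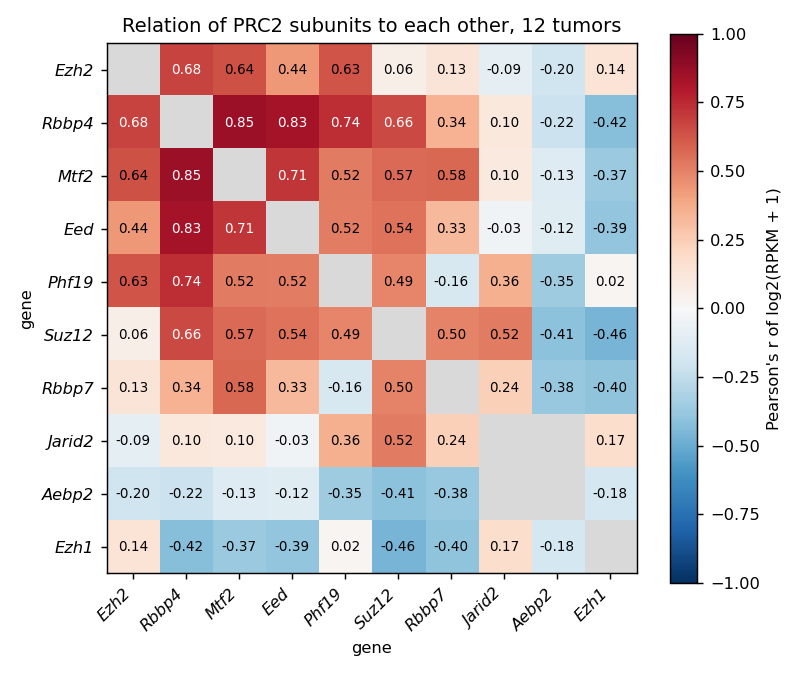
Pearson's r of log2(RPKM + 1) over 12 tumors for each pair of PRC2 members. Colour and number give r. The diagonal and the pair Jarid2 and Aebp2 are grey. Rbbp4, Mtf2, Eed, Phf19 and Suz12 are positive with one another (0.49 to 0.85), Ezh1 is negative with 6 of the 9 others, and Ezh2 with Suz12 is at 0.06.

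Without the 2 tumors farthest from the median of Rbbp4 (Vestibular N 1 and Retro-orbital 3), r stayed at 0.70 with Mtf2, 0.87 with Eed and 0.60 with Suz12, but was 0.48 with Phf19 and 0.18 with Ezh2 (p = 0.569, permutation). The same 2 tumors lay farthest from the medians of Mtf2 and Phf19, and without them the r of Ezh2 was 0.19 with Mtf2 and 0.28 with Phf19. All 3 relations of Ezh2 thus rested on these 2 tumors. Eed and Mtf2 gave 0.57 without the 2 tumors farthest from the median of Eed. Without the 2 tumors farthest from the median of Ezh2 (Retro-orbital 3 and Trigeminal N 1), r was 0.71 with Rbbp4, 0.60 with Mtf2 and 0.59 with Phf19. After quantile normalization 4 of the 8 pairs no longer had p under 0.05 by permutation: Ezh2 with Mtf2 (r = 0.50, p = 0.0974) and Phf19 (r = 0.55, p = 0.0603), Suz12 with Rbbp4 (r = 0.54, p = 0.0729) and Eed with Mtf2 (r = 0.58, p = 0.0506). With 1 tumor per identifier (n = 9), r was 0.87 for Rbbp4 and Mtf2 (exact permutation p = 0.00161) and 0.84 for Rbbp4 and Eed (exact permutation p = 0.00567).

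Few relations among members passed a test over all genes. Each member in turn was the explanatory variable of a limma regression over all other genes, with Benjamini-Hochberg adjustment over all of them. Of the 15039 genes tested, 3.35% were related to Ezh2 at an adjusted p under 0.05 (458 rose with it and 46 fell), and none of the 9 other members was among them, while 2 of 9 members and 17.8% of all genes had an unadjusted p under 0.05. For Rbbp4, 1.10% of genes were called (160 up, 6 down) and again none of the 9 members, with 5 of 9 members and 20.3% of all genes at an unadjusted p under 0.05. The lowest adjusted p of a member with Rbbp4 was 0.0542, for Eed. With tumors of a shared identifier as a block and their correlation estimated by limma (0.71, from 3 pairs of tumors), 3.57% of genes were called with Rbbp4, among them Eed (adjusted p = 0.0495) and Suz12 (adjusted p = 0.0498). With Ezh1, Eed, Suz12, Rbbp7, Mtf2 or Phf19 as the reference no gene at all was called, and 686 to 2518 genes had an unadjusted p under 0.05. An r of 0.7 or more with Rbbp4 was reached by 3 of the 9 other members and by 8.03% of all genes. The same level with Ezh2 was reached by none of 9 and by 8.21% of genes. The median r of the other members with Rbbp4 was 0.66, beside a median of 0.14 over all genes, and with Ezh2 it was 0.14, beside 0.10.

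The relations of Ezh2 to its obligate partners did not pass. Its r was 0.06 with Suz12 (p = 0.867, rho = 0.13, permutation) and 0.44 with Eed (p = 0.154, rho = 0.42, permutation). Without Trigeminal N 1 the r of Ezh2 and Suz12 was 0.43 (p = 0.179, permutation), and without Trigeminal N 1 and Retro-orbital 3, the 2 tumors farthest from the median of Ezh2, it was 0.80 (p = 0.00958, rho = 0.60, p = 0.0727, permutation, 10 tumors). These 2 tumors were chosen by their Ezh2 values, so the higher value is a description.

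Among the 10 genes closest to Ezh2 by r over the 12 tumors were Tfcp2 (0.98), Vps45 (0.98), Spice1 (0.97), Trmt1l (0.96), Oma1 (0.96), Ice2 (0.96), Ddx17 (0.96), Senp7 (0.96) and Fam208a (0.96). None of the 10 is a PRC2 member. Without the 2 tumors of lowest Ezh2 the r of the 10 ran from 0.82 to 0.95. The 10 were chosen by their r over these same tumors, so this is a description. Closest to Rbbp4 were Cenph (0.97), a kinetochore gene, Rfc5 (0.96), which loads the replication clamp, and Atp5f1 (0.95). Closest to Eed were Fmr1 (0.94), Aqr (0.94) and Ercc6l (0.94). Suz12 was nearest to Ndufb8 (0.92), Mrpl11 (0.92) and Malsu1 (0.91), all 3 mitochondrial, and Ezh1 to 1500011K16Rik (0.85), Ccdc130 (0.85) and Cnnm4 (0.84). For Rbbp7 the nearest were D630041G03Rik (0.93), Omd (0.91) and Col2a1 (0.89), the last 2 being genes of bone and cartilage matrix. For Mtf2 they included Slc25a20 (0.92) and Mrpl19 (0.91), for Phf19 Ppp1ca (0.91), Ethe1 (0.89) and Cdk2ap2 (0.89), for Jarid2 Gpr160 (0.92), Amotl2 (0.92) and Mylip (0.92), and for Aebp2 Tiprl (0.96), Gpr161 (0.96) and M1ap (0.95).

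Proliferation was scored in each tumor as the mean log2(RPKM + 1) of 20 genes of DNA replication and mitosis such as Mki67, Pcna and Plk1. The score was lowest in Retro-orbital 3 (3.19) and highest in the Vestibular N tumor (5.09). Of the 15020 genes tested against it, 2.18% were called (293 rose with the score, 34 fell), and 1 of the 10 members was among them. That member was Ezh2, which rose by 0.97 ± 0.21 (SE) on the log2 scale per unit of the score (limma, adjusted p = 0.0344, r = 0.83, permutation p = 0.00159, rho = 0.78, permutation p = 0.00407). Without the tumors of the lowest and the highest score (Retro-orbital 3 and Vestibular N 1) r was 0.43. The call was lost when Retro-orbital 3 (adjusted p = 0.247, limma), Vestibular N 1 (0.161), Meninges 1 (0.0681), Cheek 1 (0.0554), Retro-orbital 4 (0.0518) or Cheek 3 (0.0507) was left out. Rbbp4 had the higher r (0.87, permutation p = 0.00032, rho = 0.86, permutation p = 0.00077) and a smaller slope (0.43 ± 0.11 SE, limma adjusted p = 0.0591), and its r was 0.72 without the same 2 tumors. With the identifier as a block, 6.26% of genes were called, among them Ezh2 (slope 0.68 ± 0.17 SE, limma adjusted p = 0.0362) and Rbbp4 (slope 0.40 ± 0.11 SE, limma adjusted p = 0.0459). Mtf2 (r = 0.74, p = 0.0041, rho = 0.62, permutation) and Phf19 (r = 0.66, p = 0.0162, rho = 0.73, permutation) also had an unadjusted p under 0.05, and gave 0.41 and 0.30 without the 2 tumors. For Eed r was 0.57 (p = 0.0686, rho = 0.69, permutation), for Suz12 0.43 (p = 0.166), for Rbbp7 0.32, for Jarid2 -0.03, for Aebp2 -0.22 and for Ezh1 -0.39 (p = 0.206), all by permutation over 10 relations.

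**Figure D3:**
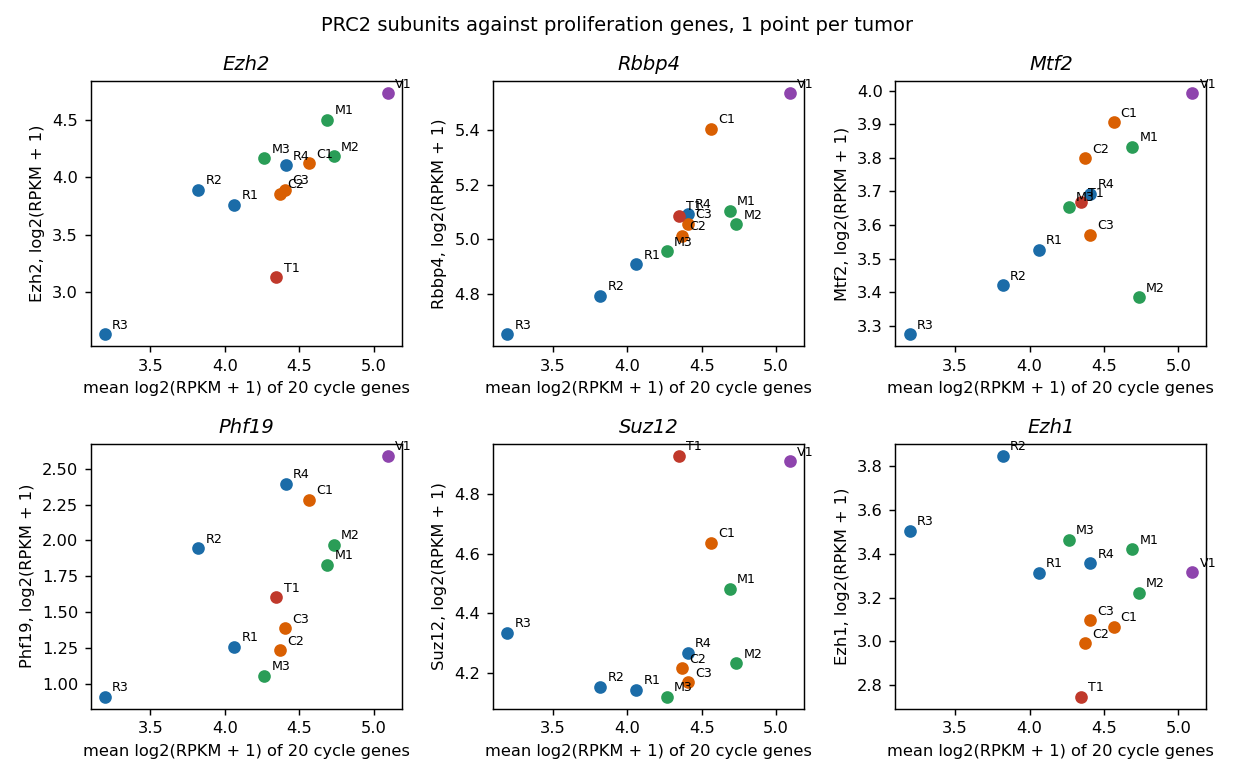
Log2(RPKM + 1) of 6 PRC2 members against the mean log2(RPKM + 1) of 20 proliferation genes. Each point is a tumor, named by the first letter of its location and its number (R Retro-orbital, C Cheek, M Meninges, V Vestibular N, T Trigeminal N). R3 is lowest and V1 highest for Ezh2, Rbbp4, Mtf2 and Phf19 but not for Suz12 or Ezh1, and T1 is low in Ezh2 beside tumors of a like score.

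After the score was removed from each member by regression, 3 of the 8 positive pairs kept an unadjusted p under 0.05: Rbbp4 with Eed (r = 0.83, p = 0.00165, permutation), with Mtf2 (r = 0.63, p = 0.0358, permutation) and with Suz12 (r = 0.66, p = 0.0192, permutation). The r of Ezh2 with Rbbp4 went from 0.68 to -0.17 (p = 0.587, permutation) and that with Mtf2 from 0.64 to 0.06 (p = 0.816, permutation). Leaving Jarid2 and Aebp2 aside, 3 pairs had an unadjusted p under 0.05 only after removal of the score. Ezh2 and Suz12 went from 0.06 to -0.58 (p = 0.0448, permutation), Suz12 and Jarid2 from 0.52 to 0.59 (p = 0.042, permutation), and Ezh2 and Ezh1 from 0.14 (p = 0.657, permutation) to 0.89 (p = 0.00015, permutation, 45 pairs). The permutation p on residuals does not account for the fitted score. Before removal of the score, Ezh2 and Suz12 had r = 0.43 without Trigeminal N 1 (p = 0.179, permutation). That tumor held the second lowest Ezh2 and the highest Suz12. The negative value after removal was not computed without that tumor, so no inverse relation over the other tumors is shown. The pair Ezh2 and Ezh1 was followed further after its value was seen, and its r was 0.82 without Trigeminal N 1, 0.91 without Retro-orbital 3 and 0.91 without both. Over all genes, with the score as covariate, Ezh1 did not pass as a partner of Ezh2 (unadjusted p = 0.00276, adjusted p = 0.505 by limma), and no gene was called in that fit.

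Aebp2, the zinc finger subunit found with Jarid2, set 3 tumors apart. It was at 24.1, 16.3, 15.7 and 13.3 RPKM in the Retro-orbital tumors, 13.1, 31.7 and 31.3 RPKM in the Cheek tumors, 10.4, 11.7 and 9.45 RPKM in the Meninges tumors, 13.2 RPKM in the Vestibular N tumor and 11.0 RPKM in the Trigeminal N tumor. Jarid2, which helps to recruit PRC2, was at 4.99, 8.50, 11.2 and 12.3 RPKM in the Retro-orbital tumors, 8.56, 5.11 and 5.52 RPKM in the Cheek tumors, 11.1, 7.33 and 8.83 RPKM in the Meninges tumors, 9.77 RPKM in the Vestibular N tumor and 11.8 RPKM in the Trigeminal N tumor. The 3 tumors of highest Aebp2 (Cheek 2, Cheek 3 and Retro-orbital 1) were the 3 of lowest Jarid2. They were chosen by their Aebp2 values, so their place apart from the other 9 tumors is a description. Within the other 9 tumors the pair had r = 0.01 (exact permutation p = 0.981), and 3 tumors are too few for a value within the first cluster. The ratio of Aebp2 to Jarid2 reached 6.19 in Cheek 2 and was 0.932 in Meninges 1.

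**Figure D4:**
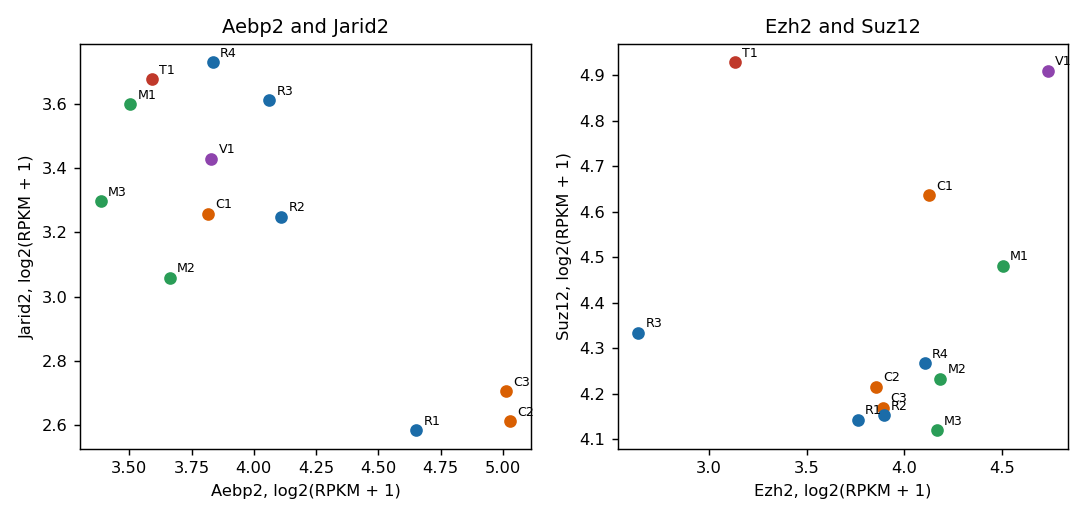
Log2(RPKM + 1) of Jarid2 against Aebp2 (left) and of Suz12 against Ezh2 (right), 1 point per tumor, named by the first letter of the location and its number. C2, C3 and R1 lie apart on the left, and T1 and R3 lie apart on the right.

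In the fit over all genes with Aebp2 as the reference, 6.77% of genes were called (389 rose with Aebp2 and 629 fell), and of the 9 other members Jarid2 was called, with a fall of Jarid2 by 0.58 on the log2 scale per unit of Aebp2 (adjusted p = 0.0456, limma). With the identifier as a block it did not pass (slope -0.56, adjusted p = 0.135, limma). The call held without Retro-orbital 2, Retro-orbital 3 or Meninges 2 and was lost without any one of the other 9 tumors (adjusted p up to 0.21, without Cheek 2). With Jarid2 as the reference, 0.432% of genes were called (35 up, 30 down) and none of the 9 members, with Aebp2 at an adjusted p of 0.0763. Without Cheek 2 and Cheek 3, which share an identifier, neither fit called any gene (1429 and 915 genes had an unadjusted p under 0.05). The fit on Aebp2 also called no gene without Cheek 2 alone or without Cheek 3 alone (2453 and 2606 genes at an unadjusted p under 0.05) or with 1 tumor per identifier (1793), and 11 genes with the identifier as a block. Over the 12 tumors 2.59% of genes rose with Aebp2 and 4.18% fell. Of 8 skeletal muscle markers 4 rose (Acta1, Ckm, Mylpf and Tnnc2), and of 5 neuronal markers tested 1 rose, the neurofilament gene Nefl. The other muscle markers were not called. Of these, Myh1 was highest in Meninges 3, Myh4 in Vestibular N 1, Tnnt3 in Meninges 1 and Actn3 in Trigeminal N 1. Of 7 astrocyte and oligodendrocyte markers 4 fell, among them Gfap, Aqp4 and Aldoc, and of 5 Schwann cell markers tested 1 fell, S100b. None of 6 leukocyte markers was called, and 1 of 5 endothelial markers fell. In Cheek 2, Cheek 3 and Retro-orbital 1 the summed muscle markers were at 586, 304 and 195 RPKM, and Meninges 1 (285 RPKM), Retro-orbital 4 (227 RPKM) and Meninges 3 (204 RPKM) lay above Retro-orbital 1. The summed neuronal markers were at 530.4, 429.3 and 38.6 RPKM in the same 3 tumors, and the astrocyte and oligodendrocyte markers at 11.4, 10.2 and 7.67 RPKM, below all other tumors but Retro-orbital 2 (6.27 RPKM). Over the 12 tumors the log2 sums had r = 0.39 (muscle), 0.72 (neurons) and -0.78 (astrocytes and oligodendrocytes) with Aebp2, and rho = 0.26, 0.29 and -0.80, as a description in which the 3 tumors lie apart. The part of these cells in the values of Aebp2 and Jarid2 was not tested.

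The location of a tumor was compared over the 10 Retro-orbital, Cheek and Meninges tumors, since the 2 other locations had 1 tumor each. By limma's F test on log2(RPKM + 1), 0.0407% of the 14742 genes tested differed between the 3 locations, and none of the 10 members did (1 member, Aebp2, at an unadjusted p of 0.026). The pairwise comparisons called 0.0271% of genes (Cheek against Retro-orbital), 0.0204% (Meninges against Retro-orbital) and 0.0475% (Meninges against Cheek), with no member in any. An unadjusted p under 0.05 was found for 1 of 10 members in each, and for 12.0%, 9.14% and 17.0% of all genes, so the members' share was near that of all genes. Those members were Ezh1 in the first, lower in Cheek by 0.45 (95% interval -0.87 to -0.04, adjusted p = 0.377), Rbbp7 in the second, higher in Meninges by 1.01 (0.10 to 1.91, adjusted p = 0.534), and Aebp2 in the third, with a difference of -1.10 (-1.85 to -0.35, adjusted p = 0.185) for Meninges. With the identifier as a block (correlation 0.93, estimated from 2 pairs of tumors, of which Cheek 1 and Meninges 1 alone span 2 locations), the F test called 19.0% of genes and 1 member, Eed (adjusted p = 0.00405). The comparison of Meninges with Cheek then called 28.8% of genes and 3 of 10 members: Eed (-0.86 ± 0.12 SE, adjusted p = 0.00121), Rbbp4 (-0.28 ± 0.08 SE, adjusted p = 0.031) and Ezh1 (0.35 ± 0.10 SE, adjusted p = 0.0281), a share near that of all genes. These blocked estimates rested largely on the pair Cheek 1 and Meninges 1. Without the block and with each tumor left out, the difference ran from -0.53 to 0.018 for Eed (-0.34 over all). It ran from -0.19 to 0.0042 for Rbbp4 (-0.12) and from 0.27 to 0.39 for Ezh1 (0.32). Eed was at 56.1 RPKM in Cheek 1 and at 26.6 and 25.5 RPKM in Cheek 2 and Cheek 3.

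**Figure D5:**
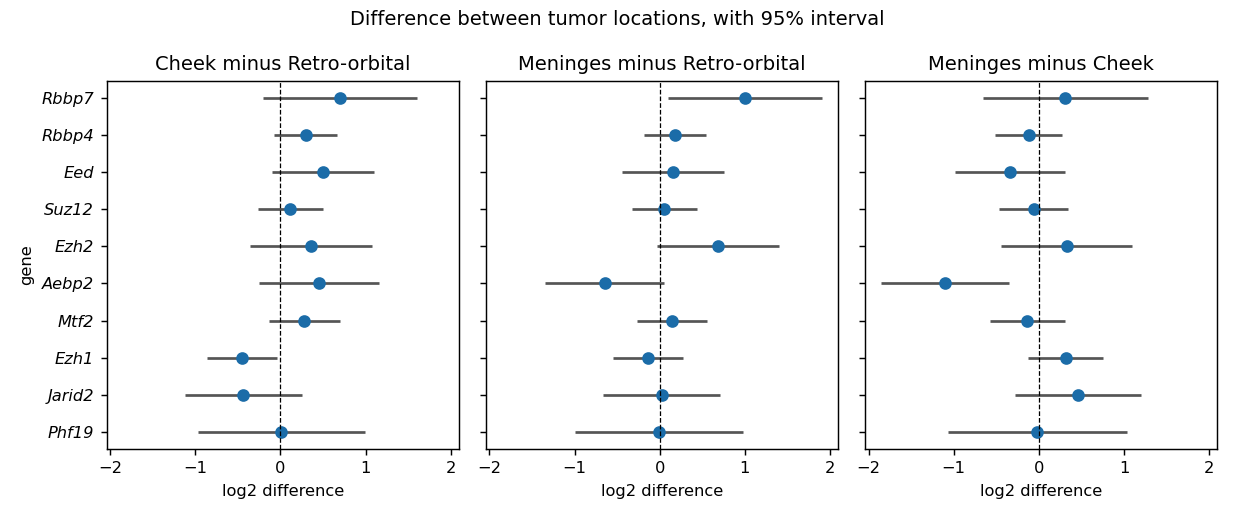
Difference of log2(RPKM + 1) between locations for each PRC2 member (point) with its 95% interval from limma (line), 10 tumors. A dashed line marks 0. The interval leaves out 0 for Ezh1 (left), Rbbp7 (middle) and Aebp2 (right).

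The location groups did not overlap for Ezh1 and Rbbp7 between Cheek and Retro-orbital, for Ezh2 and Aebp2 between Meninges and Retro-orbital, and for Ezh2, Ezh1 and Aebp2 between Meninges and Cheek. This was 2, 2 and 3 of 10 members, and among all genes 11.1%, 9.23% and 28.7% had groups that did not overlap. Ezh2 had a mean of 12.0 ± 4.74 RPKM (SD, n = 4) in Retro-orbital, 14.6 ± 1.61 RPKM (SD, n = 3) in Cheek and 18.6 ± 2.67 RPKM (SD, n = 3) in Meninges tumors. Its difference of Meninges from Retro-orbital was 0.69 on the log2 scale (95% interval -0.03 to 1.40, adjusted p = 0.554, limma). Rbbp7 was at 185, 127.1, 185 and 137 RPKM in the Retro-orbital tumors, 305, 255 and 209 RPKM in the Cheek tumors, and 485, 141 and 455 RPKM in the Meninges tumors. Meninges 2 lay within the Retro-orbital range. The Meninges tumors also had the highest astrocyte and oligodendrocyte sums among these locations apart from Retro-orbital 3 (421, 138 and 447.7 RPKM), and the part of these cells in the differences was not tested.

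Other genes of the Polycomb system were read for their relation to Ezh2, with which 3.35% of all genes tested were called. Of the other PRC2 partners, 6 of 7 were found and 5 tested, and none was called. Yy1 had the largest r (0.56, adjusted p = 0.297). Epop, listed as E130012A19Rik, an elongin partner, had a median of 2.07 RPKM, and Ezhip, listed as AU022751, an inhibitor of the enzyme, reached at most 0.115 RPKM. Of 22 genes of PRC1, the complex that ubiquitinates histone H2A, all were tested and none was called with Ezh2. The largest r was 0.74 for Cbx6 (adjusted p = 0.0738), which did rise with the proliferation score (slope 0.88 ± 0.18 SE, adjusted p = 0.0308). With Aebp2, 4 of the 22 fell and none rose, beside 4.18% of all genes that fell, in the fit that called no gene without Cheek 2 or without Cheek 3. Among the 4 were Cbx7 (slope -1.27, adjusted p = 0.0287), Phc3 (slope -0.52, adjusted p = 0.0393) and Scmh1 (slope -0.60, adjusted p = 0.0468). None of the 6 genes listed for the removal of H3K27 methylation and H2A ubiquitin (Kdm6a, Kdm6b, Bap1, Asxl1, Asxl2 and Asxl3) was called. Kdm6a was at r = 0.38 and Kdm6b at r = -0.22 with Ezh2.

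Over all genes tested, 458 of 15039 rose with Ezh2 and 46 fell, the background for the counts in this paragraph. Of 20 SWI/SNF genes, 2 rose with Ezh2 and none fell. They were Smarcd3 (slope 0.75 ± 0.16 SE, adjusted p = 0.024), at 9.45 to 28.3 RPKM, and Brd7 (slope 0.47 ± 0.10 SE, adjusted p = 0.0295), at 24.9 to 56.7 RPKM. Phf10 (r = 0.89, adjusted p = 0.0593) and Pbrm1 (r = 0.84, adjusted p = 0.101) did not pass. The median r of the 20 with Ezh2 was 0.28, beside 0.10 for all genes. Of 12 genes of the E2F and Rb family, Tfdp1 (slope 0.70 ± 0.14 SE, adjusted p = 0.0221) and Rbl1 (slope 0.55 ± 0.14 SE, adjusted p = 0.0476) rose with Ezh2, and E2f2 (r = 0.80, adjusted p = 0.0605) and E2f1 (r = 0.69, adjusted p = 0.145) did not pass. The median r of these 12 was 0.54. Of the 20 proliferation genes, 8 rose with Ezh2, among them Pcna (r = 0.90, adjusted p = 0.014), Cdc6 (r = 0.90, adjusted p = 0.0126), Aurka (r = 0.86, adjusted p = 0.021) and Plk1 (r = 0.82, adjusted p = 0.037), and none fell. All 12 genes named in this paragraph were at their lowest in Retro-orbital 3. Its astrocyte and oligodendrocyte sum was 314 RPKM, beside 6.27 to 44.2 RPKM in the other Retro-orbital tumors. Meninges 1 and Meninges 3 had higher sums (421 and 447.7 RPKM), and over the 12 tumors the sum had r = -0.01 with Ezh2. The part of these cells in the relations of Ezh2 was not tested. Without that tumor the fit on Ezh2 called no gene (1642 genes at an unadjusted p under 0.05), and without Vestibular N 1 it called 167. Without Retro-orbital 3 and Trigeminal N 1 together, which share an identifier, it called 664.

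Of 24 genes known as Polycomb targets, 8 passed the filter and none was called with Ezh2, beside 3.35% of all genes tested. Between 3 and 8 of the 24 reached 1 RPKM in a tumor. Retro-orbital 3, lowest in Ezh2, had 7, Meninges 1, second highest in Ezh2, had 8, and the Vestibular N tumor, highest in Ezh2, had 3. Cdkn2a, the tumor suppressor locus that PRC2 represses, was read in all 12 tumors (2.64 to 29.9 RPKM). Gata6 (r = -0.56, adjusted p = 0.302) and Foxa1 (r = -0.49, adjusted p = 0.35) had the most negative r with Ezh2. Both were highest in Retro-orbital 3, with 3.36 and 19.9 RPKM. Hoxd11 passed the filter through the 3 Meninges tumors alone, so its difference between locations is given as values with no test. It was at 7.54, 4.24 and 3.88 RPKM in the Meninges tumors and at most 0.32 RPKM in the other 9 tumors. For Ezh2, the same 3 tumors ranked below the Vestibular N tumor and above the other 8.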

How the data were processed

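RNA of 12 tumors was extracted, freed of ribosomal RNA and sequenced from stranded libraries in a single pool, per the study's methods. The authors used STAR for alignment to mm10, discarded reads without a unique position, and ran HTSeq against RefSeq gene models. The deposited values are RPKM, 1 per gene and tumor. The gene lengths behind the RPKM were not given in the sources used here. Fragment numbers were recovered from the steps between low values (whole within 0.01). The data were RPKM, so limma 3.58.1 in R 4.3.3 (trended, robust) was run on log2(RPKM + 1), which understates changes of low genes, over genes at 1 RPKM or more in at least 3 fitted tumors, with Benjamini-Hochberg adjustment at 0.05. Locations were fitted over 10 tumors and regressions on members or on the proliferation score over 12. Sign-flip tests were exact. Correlations used 100000 permutations, or all permutations for 9 tumors. The recovery of fragments, the limma fits and the permutation p were tested on simulated data. Promoters and gene names came from RefSeq and positions from GENCODE. Of 24060 gene rows, 4 with repeated names were left out. The members and gene lists were chosen with earlier results of these data known. Named genes were the members, the genes of highest r with each (10 for Ezh2, 3 for the others), up to 4 genes per list by r with Ezh2, and Smarcb1. Genes of the lists called with Aebp2, and Hoxd11, Cdkn2a and the genes of low level, were chosen after their values were seen. Alternatives varied the pseudocount, filter, scaling and tumors, and, added after the results were seen, used the shared identifier as a block (limma's duplicateCorrelation). A few genes of these lists and rankings are not reported here.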

Additional observations from a re-analysis of the deposited data

How the results depend on the processing

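The labels give no replicate numbers that pair locations. With tumors of a shared identifier as a block (added after seeing the data, correlations of 0.60 to 0.93 estimated from 2 or 3 pairs of tumors), members called went from 0 to 1 in the location F test (Eed), from 0 to 3 for Meninges against Cheek (Eed, Rbbp4 and Ezh1), from 0 to 2 with Rbbp4 (Eed and Suz12), from 1 to 2 with the score (Ezh2 and Rbbp4) and from 1 to 0 with Aebp2. All genes called were then 2800, 4241, 537, 941 and 11, with 50 for Ezh2. In the other alternatives (pseudocount 0.1, no filter, quantile normalization, 1 tumor per identifier, each tumor or the pair Cheek 2 and Cheek 3 left out), no member was called by the location F test, while the count over all genes ran from 0 to 198 beside 6. In the comparison of Meninges with Cheek, members called ran from 0 to 1 with each tumor left out (Aebp2 without Cheek 1, adjusted p = 0.0218). The call of Jarid2 with Aebp2 went from 1 to 0 without the filter, with quantile normalization, with 1 tumor per identifier and without Cheek 2 and Cheek 3 or Retro-orbital 3 and Trigeminal N 1 (pairs of a shared identifier, left out together after seeing the data), and ran from 0 to 1 with each tumor left out. The r of the pair was 0.0089 without the 3 tumors of highest Aebp2. The call of Ezh2 with the proliferation score, 1 member, went to 0 without the filter and without either of these pairs, and ran from 0 to 1 with each tumor left out. The members called with Rbbp4 ran from 0 to 1 (Eed without Retro-orbital 1, adjusted p = 0.046) and with Jarid2 from 0 to 1 (Aebp2 without Retro-orbital 4). The cause of these changes was not tested. Without the block, counts over all genes ran from 0 to 664 for Ezh2 (main 504), 0 to 306 for Rbbp4 (166), 0 to 409 for Jarid2 (65), 0 to 1368 for Aebp2 (1018) and 1 to 425 for the score (327), and from 0 to 147, 0 to 41 and 0 to 527 for the 3 location comparisons (4, 3 and 7). The r of Ezh2 and Rbbp4 turned to -0.17 with the score as covariate. Of the 8 positive pairs, Rbbp4 with Mtf2 and with Eed kept an unadjusted p under 0.05 throughout. Ezh2 with Rbbp4, Mtf2 and Phf19 lost it without Retro-orbital 3 (r 0.50, 0.43 and 0.49) or Vestibular N 1 (0.56, 0.53 and 0.52), and Suz12 with Rbbp4 without Vestibular N 1 (0.47). Quantile normalization ended it for Ezh2 with Mtf2 (0.50) and Phf19 (0.55), Suz12 with Rbbp4 (0.54) and Eed with Mtf2 (0.58), and the score as covariate for these 2 pairs of Ezh2, Eed with Mtf2 and Rbbp4 with Phf19 as well as Ezh2 with Rbbp4. Phf19 and the score did so without either (0.53 and 0.54). With 1 tumor per identifier, the order of Rbbp4 above Eed (0.18, exact p = 0.082) and of Mtf2 above Ezh1 (0.29, exact p = 0.0977) no longer passed. That of Aebp2 above Mtf2 ran from 0.30 to 0.46 with each tumor left out and passed without Meninges 1, Meninges 3 or Vestibular N 1. Depth limits Phf19 most, at 72 fragments in 1 tumor.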
